A study of Homo sapiens with 12 samples.

Results

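The growth of K562 cells in which C12orf66 (KICS2) was repressed together with a second gene was followed without drug. K562 is a human chronic myelogenous leukemia line, and per the labels it carried the machinery of CRISPR interference (CRISPRi), in which a catalytically dead Cas9 guided to a gene's start site represses its transcription. The library of dual-sgRNA constructs held 1301881 constructs made from 1141 sgRNAs, 2 per gene for 543 genes plus 55 non-targeting ones. The C12orf66 background comprised 4336 constructs that joined a C12orf66 sgRNA, in either position, to a sgRNA of one of the 542 other genes, which gave 8 constructs per gene pair and 542 gene pairs of 147153 in all. C12orf66 was chosen by its measured growth in these libraries, which was the highest of the 543 genes, so its own growth is described below with no test.

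The libraries used here were the reference endpoint, grown with vehicle (DMSO), and T0, the start of the vehicle treatment. Both groups consisted of puromycin-selected K562 CRISPRi cells with the same construct library, and no drug entered the results except where the niraparib endpoint is named. A screen labelled 2022 and one labelled 2023 had 2 replicate cultures each, with T0 on day 9 after transduction and the reference harvest on day 18 in 2022 and day 19 in 2023. T0 samples were taken from each culture before it was split into arms, so T0 and reference libraries of 1 replicate number come from the same culture. The 4 cultures are listed below in the order 2022 replicate 1, 2022 replicate 2, 2023 replicate 1 and 2023 replicate 2. Reference and T0 libraries together held 187186889 to 460723933 reads each, of which C12orf66 pairs took 1873352 to 4081164 in the reference libraries and 1023415 to 1526644 in the T0 libraries. Median T0 reads per C12orf66 pair, summed over its constructs, were 2385, and the lowest T0 mean was 195.5. Knockdown of the targets was not measured in the files used here, and PCR reads carried no molecular identifiers, so they are not independent molecules.

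C12orf66 encodes a subunit of KICSTOR, a complex that holds GATOR1 at the lysosome. GATOR1 switches off the Rag GTPases when amino acids are scarce, and the Rag GTPases, anchored by Ragulator, bring the growth kinase mTORC1 to the lysosomal membrane. Loss of KICSTOR therefore leaves mTORC1 active under starvation, and active mTORC1 raises the making of ribosomes, lipids, nucleotides and one-carbon units. No other gene of the KICSTOR and GATOR1 list was among the partners. The gene lies on chromosome 12, minus strand, at positions 64186316 to 64222296 of GRCh38.p14.

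CRISPRi sgRNAs are placed around a gene's transcription start, so the RefSeq sequence of the 250 bases upstream of the annotated KICS2 start is shown, 5′ to 3′ on the minus strand at chr12:64222297-64222546 of GRCh38.p14, with each CpG in capitals.
KICS2 promoter: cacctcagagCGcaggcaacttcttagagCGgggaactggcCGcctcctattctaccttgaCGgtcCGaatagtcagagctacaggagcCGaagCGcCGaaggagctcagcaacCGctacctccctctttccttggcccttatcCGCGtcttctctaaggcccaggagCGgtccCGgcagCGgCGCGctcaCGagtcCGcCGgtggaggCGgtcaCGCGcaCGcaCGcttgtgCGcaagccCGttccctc
The window had a GC content of 64.4% and 26 CpG dinucleotides, against a median of 11 in the windows of equal length of 35116 RefSeq promoters, of which 19.6% held at least as many. The sgRNAs of the gene are known here by their names only, and their letters are not shown.

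Knockdown of C12orf66 alone raised growth with both sgRNAs and in both positions. Growth is the log2 ratio of reference over T0 reads relative to constructs with 2 non-targeting sgRNAs. The first sgRNA, numbered 64616013, gave 0.54, 0.65, 0.59 and 0.66 in the 4 cultures from the first position and 0.59, 0.57, 0.74 and 0.69 from the second. The second sgRNA, numbered 64616039, gave 0.67, 0.68, 0.87 and 0.90 from the first position and 0.65, 0.68, 0.90 and 0.87 from the second. All 16 values were above 0, and those of the second sgRNA were higher in the 2023 cultures than in the 2022 cultures. Over all 220 constructs the mean was 0.75, the highest of 543 genes. Constructs with the first sgRNA in the first position were the rarest, with 2907 to 4143 T0 reads per culture over all non-targeting partners, against 10201 to 41377 for the other sgRNA and position combinations.

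In the C12orf66 background, most knockdowns that slowed growth slowed it more than they did alone. Growth in the background is the log2 reference over T0 ratio of a pair relative to C12orf66 with non-targeting sgRNAs, and growth alone is that of the partner with non-targeting sgRNAs relative to 2 non-targeting sgRNAs. The slope of growth in the background on growth alone, across 542 partners, was 1.139, 1.119, 1.130 and 1.128 in the 4 cultures (mean 1.129 ± 0.008, SD, n = 4). Every culture lay above 1, and partners are not independent replicates, so the slope is a description. With 26 partners whose growth alone was below -2, the median was -2.84 in the background and -2.56 alone. With 121 partners between -2 and -1 it was -1.61 in the background and -1.38 alone, and with 115 between -1 and -0.5 it was -0.86 in the background and -0.73 alone. With 137 partners above -0.1 it was -0.006 in the background and -0.004 alone.

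**Figure D1:**
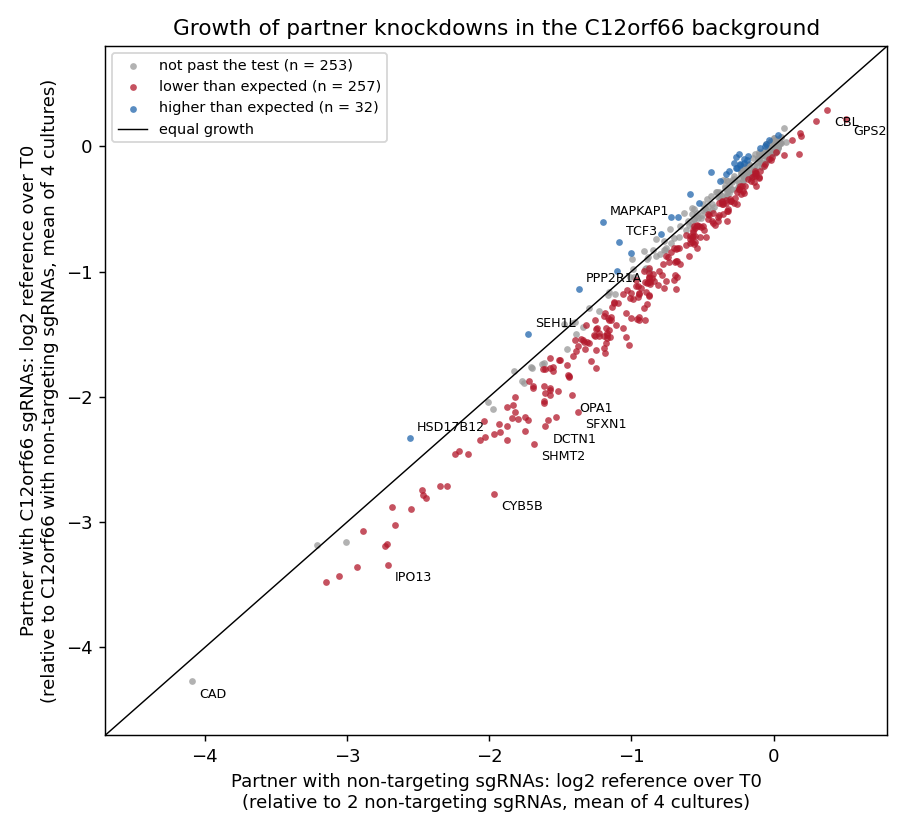
Growth of 542 partner knockdowns in the C12orf66 background (vertical axis) against growth alone (horizontal axis), both log2 reference over T0, means of 4 cultures. Colours give the edgeR call, with 257 partners lower than expected, 32 higher and 253 not past the test. Slow-growing partners lie mostly below the line of equal growth, and MAPKAP1 lies farthest above it.

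The interaction of a partner is its log2 growth in the background minus its growth alone, so a value below 0 means that the pair grew less than the sum of both knockdowns predicts. It was fitted by edgeR's quasi-likelihood test with the culture as a block and a threshold of 0.05 after Benjamini-Hochberg adjustment. The adjustment took in 176880 tests, of 147124 gene pairs and of 29756 pairs of a gene with a single non-targeting sgRNA. Of 542 partners, 257 (47.4%) were lower than expected and 32 (5.9%) higher in the C12orf66 background. Over all 147124 gene pairs tested, 3.15% were lower and 39.6% higher. The growth of C12orf66 alone, by which it was chosen, enters the expectation of every one of its pairs, so nothing is read from the contrast of these shares. The median interaction was -0.07. The 55 non-targeting sgRNAs, fitted as if each were a partner, ranged from -0.07 to 0.09 with a median of -0.002, and 0 of 55 passed in edgeR. Of these 55, 3 had an unadjusted p under 0.05 in edgeR, 0 passed in DESeq2 and 2 in limma. The growth of C12orf66 alone is summed over the same 55 sgRNAs, so their interactions centre near 0 by construction. They cannot test the expectation for partners that slow growth. Over every gene with a single non-targeting sgRNA, 779 of 29756 pairs (2.62%) were lower and 744 (2.5%) higher in edgeR.

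Lower calls were concentrated among partners that slowed growth alone. They made up 21 of 26 partners with growth alone below -2, 95 of 121 from -2 to -1, 74 of 115 from -1 to -0.5, 52 of 143 from -0.5 to -0.1 and 15 of 137 above -0.1. Median interactions in these classes were -0.30, -0.24, -0.13, -0.04 and -0.003. Higher calls numbered 1, 6, 5, 15 and 5 in the same classes. The interaction is itself growth in the background minus growth alone, so its relation to growth alone is a description of these libraries.

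The split into lower and higher depends on the expectation. Set to the median partner of the background, 156 were lower and 141 higher, and with TMM scaling 419 were lower and 10 higher. Against curves of degree 2, which take for every pair the mean of the value on the curve through all partners of C12orf66 and that on the curve through all partners of the other gene, 22 were lower and 238 higher. Of the 257 lower calls 21 remained against the curves, and of the 32 higher calls 31 did. C12orf66 had the highest growth of all genes, so the curve of each other gene is read at the end of its range. The median over all partners was 0.08 against the curves. "Lower" and "higher" below are relative to the sum of both single knockdowns unless the curves are named.

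The slope in the C12orf66 background was the second steepest of 543 backgrounds. C12orf66 was chosen by its own growth, with which the slope ran (below), so nothing is read from this rank. GPS2, a subunit of the NCoR corepressor, had a slope of 1.20, CBL, which ubiquitinates activated receptor tyrosine kinases, one of 1.06, and TSC1, which restrains mTORC1 through RHEB, one of 1.03. The median over 543 backgrounds was 0.81, and 60 backgrounds had a slope above 1. The slope ran with the growth of the background gene, with Pearson r = 0.937 and Spearman rho = 0.939 across 543 backgrounds, which share all libraries and most constructs of a partner.

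**Figure D2:**
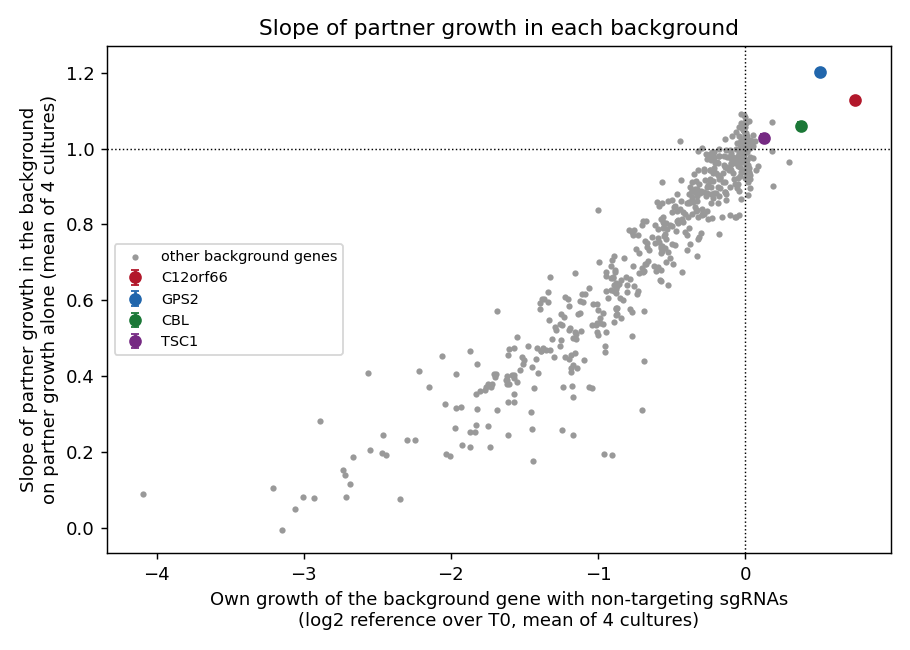
Slope of partner growth in the background on partner growth alone (vertical axis, mean of 4 cultures) against the growth of the background gene with non-targeting sgRNAs (horizontal axis, log2 reference over T0), for 543 backgrounds. Error bars on the 4 coloured points, the SD over 4 cultures, are smaller than the symbols. C12orf66 lies farthest right, with a slope of 1.129, below GPS2 at 1.20.

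The lowest interaction belonged to CYB5B, a cytochrome b5 of the outer mitochondrial membrane. Growth with CYB5B and C12orf66 sgRNAs was -2.59, -2.51, -3.11 and -2.89 in the 4 cultures, against -1.69, -1.68, -2.32 and -2.16 with CYB5B and non-targeting sgRNAs. Every culture was lower in the background, and the ranges did not overlap. The interaction was -0.82 ± 0.06 (SE, edgeR adjusted p = 5.35e-19). It rested on 506 to 1559 reads in the reference libraries and 1443 to 2442 in the T0 libraries.

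Next lowest were SFXN1, the mitochondrial serine transporter, and SHMT2, the mitochondrial enzyme that splits serine into glycine and a one-carbon unit. SFXN1 growth was -1.60, -2.08, -2.39 and -2.41 in the background, against -1.02, -1.41, -1.53 and -1.55 alone, an interaction of -0.73 ± 0.05 (SE, edgeR adjusted p = 1.3e-19). SHMT2 growth was -1.86, -2.32, -2.85 and -2.49 in the background, against -1.20, -1.70, -1.96 and -1.87 alone, an interaction of -0.68 ± 0.06 (SE, edgeR adjusted p = 9.67e-15). Both genes were lower in every culture, by more than the spread of the interaction between cultures. MTHFD2, the next enzyme of the mitochondrial folate pathway, stood at -1.77 ± 0.31 in the background and -1.25 ± 0.24 alone (SD, n = 4), an interaction of -0.51 ± 0.04 (SE, edgeR adjusted p = 3.48e-15).

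These genes belong to the list of serine and one-carbon metabolism. Of its 6 measured members 5 were lower, with a median interaction of -0.46, against 257 of 542 and -0.07 over all partners. The list's median growth alone was -1.315. Of all partners with growth alone from -2 to -1, 95 of 121 were lower, with a median interaction of -0.24. The other 2 lower members of the list were MTHFD1, the cytosolic folate enzyme, at -0.42 and MTHFD1L of the mitochondrial pathway at -0.23 (both named after their values were seen). PSPH, which makes the last step of serine synthesis, stood at -0.09 (edgeR adjusted p = 0.143). Against the curves SFXN1 (-0.40) and SHMT2 (-0.34) were still lower, MTHFD2 (-0.10) did not pass and PSPH (0.24) was higher, and the list's median was -0.05, against 0.08 over all partners.

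The other 8 of the 12 lowest partners came from several processes. DCTN1, a dynactin subunit that links dynein to its cargo, had an interaction of -0.63, and MBTPS2, the site-2 protease that releases SREBP transcription factors from the membrane, one of -0.62. IPO13, an importin, stood at -0.61, CEP63 of the centrosome at -0.59, OPA1, which fuses the inner mitochondrial membrane, at -0.57 and NCBP2 of the nuclear cap-binding complex at -0.57. PLK1, a mitotic kinase, and TOP2A, the topoisomerase that untangles sister chromatids, both stood at -0.48. Growth of these 8 was -3.34 to -1.39 in the background and -2.71 to -0.90 alone. Their edgeR adjusted p ran from 9.22e-19 to 9.65e-05, and all 12 genes were lower in 4 of 4 cultures.

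**Figure D3:**
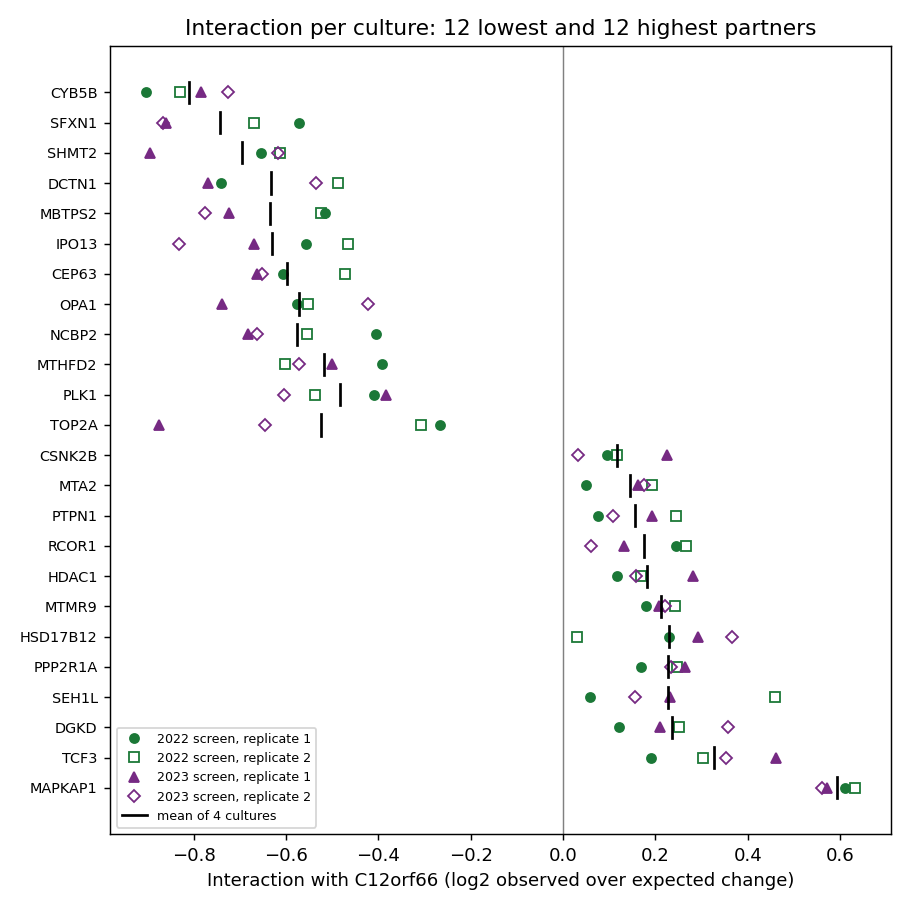
Interaction with C12orf66 (horizontal axis, log2 observed over expected change) of the 12 lowest and 12 highest partners, with 1 symbol per culture and a bar for the mean of 4 cultures. All cultures of the 12 lowest partners lie below 0 and all cultures of the 12 highest lie above it.

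Of these 12, CYB5B (-0.35), SFXN1, SHMT2, DCTN1 (-0.20), MBTPS2 (-0.14) and NCBP2 (-0.19) were also lower against the curves, while IPO13 (-0.003), CEP63 (-0.12), OPA1 (-0.12), MTHFD2, PLK1 (-0.02) and TOP2A (0.00) did not pass there. With the first C12orf66 sgRNA alone, IPO13 (-0.08), PLK1 (-0.47) and TOP2A (-0.12) did not pass.

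The highest interaction belonged to MAPKAP1 (SIN1), a subunit that mTORC2 needs to phosphorylate AKT. MAPKAP1 pairs with C12orf66 had 7066, 5986, 2695 and 2326 reads in the reference libraries of the 4 cultures and 2464, 2483, 1547 and 1475 at T0. Growth was -0.43, -0.55, -0.71 and -0.74 in the background, against -1.04, -1.19, -1.28 and -1.30 alone, and the ranges did not overlap. The interaction was 0.60 ± 0.04 (SE, edgeR adjusted p = 5.57e-21), with cultures between 0.56 and 0.63. About equal values came from the first C12orf66 sgRNA (0.58) and the second (0.60), and the value was 0.87 against the curves. MAPKAP1 knockdown thus slowed growth in both settings, and by less in the C12orf66 background.

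TCF3, an E protein transcription factor, had the next highest value. Its growth was -0.77, -0.75, -0.74 and -0.80 in the background, against -0.96, -1.05, -1.20 and -1.15 alone, an interaction of 0.32 ± 0.04 (SE, edgeR adjusted p = 9.12e-11). DGKD, a diacylglycerol kinase, stood at -0.21 ± 0.13 in the background and -0.44 ± 0.04 alone (SD, n = 4), an interaction of 0.23 (edgeR adjusted p = 1.7e-07). SEH1L, shared by the nuclear pore and by GATOR2, which counteracts GATOR1, stood at -1.50 ± 0.24 in the background and -1.73 ± 0.17 alone, an interaction of 0.23 (edgeR adjusted p = 0.000147). Its cultures were spread from 0.06 to 0.46, and it did not pass with C12orf66 in the first position (0.16). PPP2R1A, the scaffold of protein phosphatase 2A, stood at -1.14 ± 0.09 in the background and -1.37 ± 0.13 alone, an interaction of 0.23 (edgeR adjusted p = 1.96e-07).

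The remaining 7 of the 12 highest partners had smaller values. MTMR9, a myotubularin-related protein, had an interaction of 0.21, HDAC1, a histone deacetylase, and RCOR1, its partner in the CoREST complex, had 0.18 each, PTPN1, a tyrosine phosphatase, 0.16, MTA2 of the NuRD deacetylase complex 0.14 and CSNK2B, the regulatory subunit of casein kinase 2, 0.12. HSD17B12 of fatty acid elongation had 0.22, but -0.09 with C12orf66 in the second position, -0.06 with the first sgRNA and -0.02 in limma on means over constructs. Adjusted p of these 7 ran from 1.33e-08 to 0.000345 in edgeR. With the first sgRNA alone MTA2 (-0.05) and CSNK2B (-0.02) had the opposite sign and PTPN1 (0.04) did not pass, and under TMM scaling MTA2 (0.06) and CSNK2B (0.04) did not pass. All 12 were higher against the curves.

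The partners of the mTORC1 pathway held calls in both directions. Of the Ragulator subunits, LAMTOR5 growth was -0.66, -0.75, -0.74 and -0.74 in the background, against -0.40, -0.45, -0.55 and -0.51 alone, an interaction of -0.25 ± 0.04 (SE, edgeR adjusted p = 4.59e-08). LAMTOR3 stood at -1.05 ± 0.14 in the background and -0.88 ± 0.08 alone (SD, n = 4), an interaction of -0.16 (edgeR adjusted p = 0.000977). RRAGD, a Rag GTPase, had an interaction of 0.00 (edgeR adjusted p = 0.943), with growth of -0.06 in the background and -0.07 alone.

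The kinase itself and its scaffold were lower by little. MTOR stood at -1.39 ± 0.24 in the background and -1.25 ± 0.14 alone, an interaction of -0.13 (edgeR adjusted p = 0.0133), and RPTOR, the subunit that defines mTORC1, at -1.71 ± 0.27 in the background and -1.51 ± 0.17 alone, an interaction of -0.19 (edgeR adjusted p = 0.00668). TTI2, which stabilises mTOR and related kinases, had -0.03 (edgeR adjusted p = 0.531) and EIF4G1, the scaffold of the cap-binding translation factor, -0.05 (edgeR adjusted p = 0.582). With SEH1L and MAPKAP1 higher and TSC1 lower, 5 of the 10 measured genes of these lists were lower, 2 higher and 3 not past the test, a share of lower calls near the 47.4% over all partners. Several of the lower calls rested on single libraries or settings. Without 2023 replicate 1, MTOR (-0.09) and RPTOR (-0.13) did not pass, MTOR was 0.02 with C12orf66 in the first position, and against the curves MTOR (0.22), RPTOR (0.26) and LAMTOR3 (0.17) were higher and LAMTOR5 (-0.04) did not pass.

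Of partners whose own knockdown raised growth, GPS2, CBL and TSC1 gave less in the C12orf66 background than alone. These genes and C12orf66 were chosen with their raised growth in these libraries known, and that growth enters the expectation. The p-values below do not allow for that choice. GPS2 growth was 0.11, 0.22, 0.34 and 0.21 in the background, against 0.40, 0.47, 0.58 and 0.57 alone, an interaction of -0.29 ± 0.02 (SE, edgeR adjusted p = 4.4e-15), and every culture in the background was below every culture alone. CBL stood at 0.29 ± 0.09 in the background and 0.38 ± 0.06 alone (SD, n = 4), an interaction of -0.09 (edgeR adjusted p = 0.00262) that was below 0 in 3 of 4 cultures. TSC1 stood at 0.05 ± 0.06 in the background and 0.13 ± 0.04 alone, an interaction of -0.08 (edgeR adjusted p = 0.00304). Set to the median partner, CBL (-0.01) and TSC1 (-0.01) did not pass, and CBL did not without 2022 replicate 1 (-0.06) nor TSC1 without 2023 replicate 2 (-0.06).

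The highest growth in the background was that of CBL and GPS2, followed by MTF2 of Polycomb complex PRC2 at 0.20 ± 0.11 (0.30 ± 0.06 alone, interaction -0.10, edgeR adjusted p = 0.00109). E2F7, a repressor of E2F targets, stood at 0.15 ± 0.02 in the background and 0.07 ± 0.01 alone (interaction 0.07, edgeR adjusted p = 0.0518). The acetyltransferase EP300 stood at 0.09 ± 0.04 in the background and 0.03 ± 0.02 alone (interaction 0.06, edgeR adjusted p = 0.0325, and -0.02 under TMM scaling). CBL, GPS2, MTF2 and E2F7 are ordered by growth, and neighbours among these 4 differed by less than the larger SD of the pair. EP300 did not pass without 2023 replicate 1 (0.05) or 2023 replicate 2 (0.04). Set to the median partner, MTF2 (-0.02) did not pass. MTF2 also did not in the 2023 screen alone (-0.06), with C12orf66 in the first position (-0.08) or in limma (-0.12).

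The lowest growth in the background was that of CAD, the protein that starts pyrimidine synthesis, with -4.29, -4.05, -4.60 and -4.14 in the 4 cultures, against -3.80, -3.81, -4.32 and -4.44 alone. Its interaction of -0.22 ± 0.12 (SE, edgeR adjusted p = 0.155) rested on 92 to 188 reads in the reference libraries and did not pass, while without 2023 replicate 2 it did (-0.35). HJURP, which loads the histone variant of centromeres, stood at -3.48 in the background and -3.15 alone, GEMIN2 of the SMN complex at -3.43 in the background and -3.06 alone, MCM2 of the replicative helicase at -3.35 in the background and -2.93 alone, IPO13 at -3.34 in the background and -2.71 alone and NOP10 of the H/ACA particles at -3.19 in the background and -2.73 alone. All 5 were lower in edgeR, with interactions of -0.61 to -0.32. With the first C12orf66 sgRNA alone, HJURP (-0.05), MCM2 (-0.12), NOP10 (-0.15) and IPO13 (-0.08) did not pass, and HJURP did not in limma (-0.24). Against the curves HJURP (0.38), GEMIN2 (0.30) and NOP10 (0.14) were higher, and MCM2 (0.17) and IPO13 did not pass.

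The lists are described by counts and medians, to be read against 47.4% lower and a median of -0.07 over all partners, and, for lists of slow-growing partners, against 95 of 121 lower among partners with growth alone from -2 to -1. Partners of the centromere, spindle and mitosis list were lower in 8 of 10 cases, with a median of -0.32 that ran from DCTN1 to CCNB1, the mitotic cyclin, at -0.07 (edgeR adjusted p = 0.0536). Of 9 ribosome biogenesis and H/ACA genes 7 were lower, with a median of -0.31. Among them DDX10, a helicase of ribosome assembly, stood at -1.65 ± 0.21 in the background and -1.18 ± 0.13 alone (SD, n = 4), an interaction of -0.46, while RRP12, which helps ribosomal subunits leave the nucleus, stood at -1.41 ± 0.17 in the background and -1.42 ± 0.23 alone. RRP12 slowed growth alone, and its interaction of 0.004 did not pass (edgeR adjusted p = 0.967).

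In mitochondrial gene expression and respiration, the counts of lower calls stand beside 47.4% over all partners and 95 of 121 among partners with growth alone from -2 to -1. Of 6 genes of mitochondrial tRNA synthetases and translation 5 were lower (median -0.27), from LARS2, the leucyl-tRNA synthetase, at -0.37 to TUFM, an elongation factor, at -0.11, whose call was lost without 2022 replicate 1 (-0.11), 2023 replicate 1 (-0.10) or 2023 replicate 2 (-0.06). Of 11 genes of respiration and mitochondrial DNA 10 were lower (median -0.21), from COQ2 of ubiquinone synthesis at -0.43 to COX11, an assembly factor of cytochrome oxidase, at -0.07 (edgeR adjusted p = 0.194). In glycolysis and the pentose phosphate pathway 5 of 5 were lower (median -0.22), from the aldolase ALDOA at -0.48 to RPE, a pentose phosphate epimerase, at -0.17. Against the curves all 6 mitochondrial translation genes were higher.

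The next lists are also to be read against 47.4% lower over all partners and against partners of like growth alone. Of those from -1 to -0.5, 74 of 115 were lower, and of those from -0.5 to -0.1, 52 of 143. Median growth alone was -0.77 for the proteasome, -0.57 for cytosolic translation and -0.83 for the proton pump. It was -0.19 for nonsense-mediated decay and -1.14 for nucleotide supply. Of 9 proteasome genes 6 were lower (median -0.16), with PSMA2 of the core particle at -0.36 and PSMD13 of the cap at 0.04. In nonsense-mediated decay and the exon junction 9 of 16 were lower (median -0.13), a share near that of all partners, with EIF4A3, the helicase that anchors the exon junction complex, at -0.44 and its partner CASC3 at 0.05. In cytosolic translation 3 of 4 were lower (median -0.11), with the initiation factor EIF3D at -0.25 and MCTS1 at -0.01. In pyrimidine, purine and NAD supply 2 of 6 were lower (median -0.08), with UMPS, which completes UMP, at -0.23 and DNPH1, which hydrolyses nucleotides, at 0.04. Of the 3 lysosomal proton pump genes, only ATP6V0C was lower, at -0.16.

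In replication and repair, lists lay nearer the median of all partners. Of 25 replisome and polymerase genes 13 were lower and 1 higher (median -0.12), with MCM2 at -0.43 and CDC6, which loads the helicase, at 0.11. Of 28 homologous recombination genes 16 were lower and 1 higher (median -0.07), with the helicase BRIP1 at 0.08. BRIP1 lost its call without 2022 replicate 2 (0.06) or 2023 replicate 2 (0.07).

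The ATR-CHK1 checkpoint had 7 of 15 lower (median -0.08, CLSPN at -0.42 and ATRIP at 0.04) and Fanconi anemia 8 of 16 lower and 1 higher (median -0.09, FANCD2 at -0.18 and WDR48 at 0.11). Cohesin and SMC5-SMC6 had 4 of 7 lower (median -0.10, NDNL2 at -0.36 and ESCO2 at 0.03). Of 19 end joining and shieldin genes 4 were lower and 1 higher (median -0.004), with RIF1, which protects broken ends, at -0.33 and TEN1 of the telomeric CST complex at 0.09. Of 10 base excision genes 1 was lower (median -0.05), PARP1 at -0.12. These shares are to be read against 47.4% lower over all partners, and against partners of like growth alone. Of those from -1 to -0.5, 74 of 115 were lower, and of those from -0.5 to -0.1, 52 of 143. Median growth alone was -0.84 for the replisome and ATR-CHK1 lists and -0.39 for homologous recombination and cohesin. It was -0.32 for Fanconi anemia, -0.18 for base excision and -0.11 for end joining.

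Signalling and chromatin lists held both directions. Of 6 PP2A and PP4 genes 2 were lower and 2 higher (median 0.04), with PPP4C, the PP4 catalytic subunit, at -0.17 and PPP2R1A at 0.23. Of 11 kinase and RAS signalling brakes 2 were lower and 2 higher (median 0.003), with PTPN1 at 0.16, and among 4 genes of PI3K and AKT signalling (median 0.02) PIK3CA, the PI3K catalytic subunit, was higher at 0.10. Of 9 Polycomb and corepressor genes 3 were lower (median -0.01), from GPS2 at -0.29 to HDAC3 at 0.03. Median growth alone was -0.06 for the signalling brakes and 0.0002 for the Polycomb list. Of all partners with growth alone above -0.1, 15 of 137 were lower.

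The COP9 signalosome and cullins had 5 of 7 lower and 1 higher (median -0.10), against 47.4% lower over all partners. The list's median growth alone was -0.68, and of all partners from -1 to -0.5, 74 of 115 were lower. Centred on the median partner, 1 of the 7 was higher and the others did not pass. Its members ran from CUL2 at -0.13 to COPS5, the catalytic subunit of the signalosome, at 0.11. Of 7 genes of cell cycle entry and E2F 1 was higher (median 0.04), MYC standing at -0.06 (edgeR adjusted p = 0.0841) and CDK2 at 0.10, a call lost without 2022 replicate 1 (0.07) or 2022 replicate 2 (0.05). CUL2 lost its call without 2023 replicate 1 (-0.08), COPS5 without 2022 replicate 2 (0.08), WDR48 without 2023 replicate 1 (0.09) and TEN1 without 2022 replicate 2 (0.07).

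Against the curves the median of all partners was 0.08 and that of most lists above 0, at 0.10 for the centromere list, 0.14 for ribosome biogenesis, 0.21 for mitochondrial translation and 0.17 for respiration. The medians below 0 there were those of serine and one-carbon metabolism (-0.05) and of nonsense-mediated decay and the exon junction (-0.008).

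**Figure D4:**
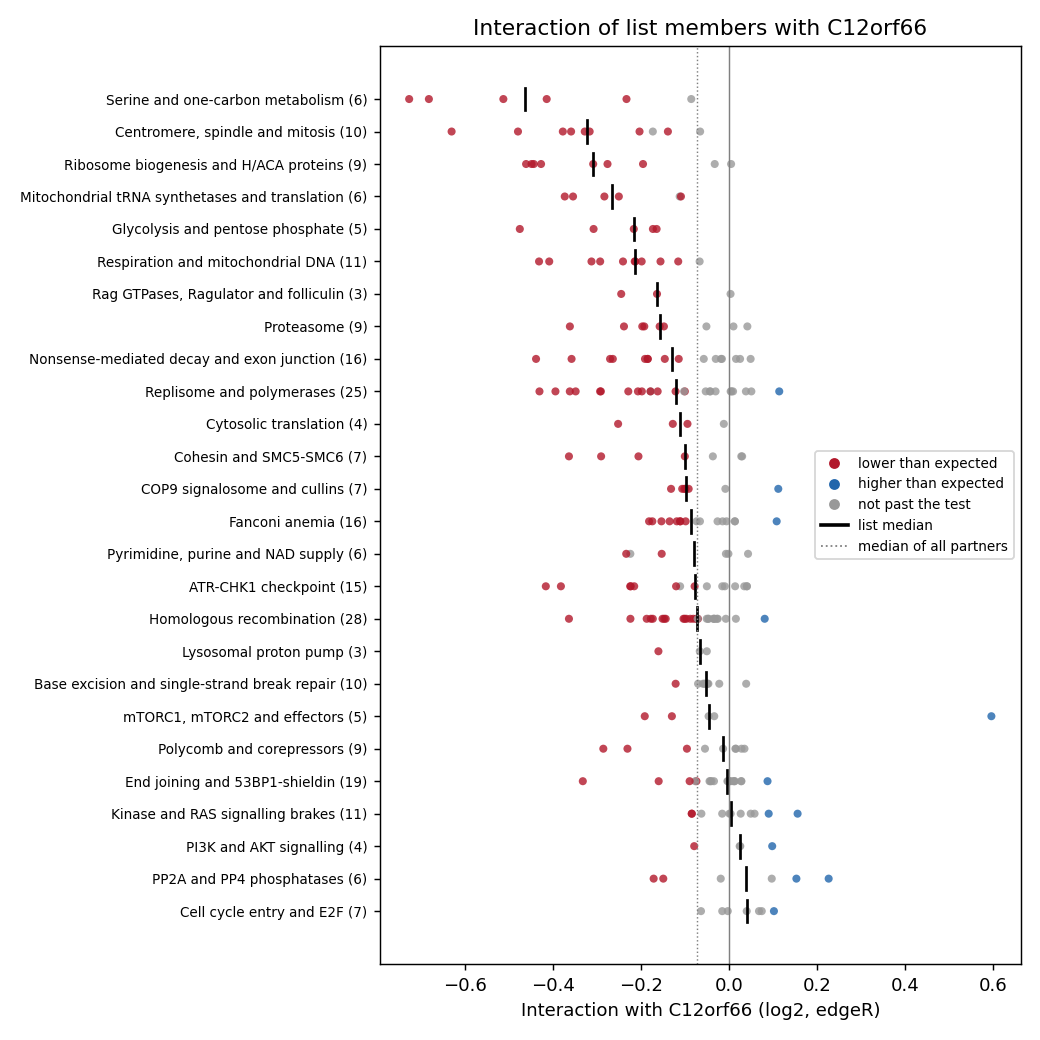
Interaction with C12orf66 (horizontal axis, log2, edgeR) of the members of 26 gene lists with at least 3 measured members (number in brackets), ordered by list median. Red points were lower than expected, blue points higher and grey points not past the test. The medians run from -0.46 for serine and one-carbon metabolism to 0.04 for cell cycle entry and E2F, and the dotted line marks the median of all partners at -0.07.

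The interactions of C12orf66 were set directly against those of TSC1, GPS2 and CBL with the same partner, over 541 partners each and with p-values adjusted over the 3 comparisons in edgeR. The comparisons share the C12orf66 pairs, and all 3 genes raised growth in these libraries. Against TSC1, 132 partners were lower in the C12orf66 background and 20 higher. Against CBL, 103 were lower and 35 higher, and against GPS2 21 were lower and 109 higher. The slope was shallower with TSC1 and CBL and steeper with GPS2 than with C12orf66. Differences in slope were not taken out, here or for the single partners below, so nothing is read from these counts.

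MAPKAP1 was higher with C12orf66 than with each of the other 3. Its interaction was 0.60 with C12orf66, against 0.31 with TSC1 (difference 0.29 ± 0.06 SE, edgeR adjusted p = 1.64e-05), 0.11 with CBL (difference 0.49, edgeR adjusted p = 5.11e-13) and 0.04 with GPS2 (difference 0.56, edgeR adjusted p = 6.86e-18). TCF3 stood at 0.32 with C12orf66, against -0.32 with TSC1 (difference 0.63, edgeR adjusted p = 9.52e-24), -0.38 with CBL (difference 0.70, edgeR adjusted p = 2.19e-29) and 0.02 with GPS2 (difference 0.30, edgeR adjusted p = 8.05e-07). SEH1L stood at 0.23 with C12orf66, against 0.30 with TSC1 (difference -0.08 ± 0.07 SE, edgeR adjusted p = 0.483), -0.02 with CBL (difference 0.24, edgeR adjusted p = 0.00932) and -0.21 with GPS2 (difference 0.45, edgeR adjusted p = 1.79e-07). For SEH1L the difference from TSC1 did not pass, which does not show that both backgrounds act alike.

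CYB5B, SFXN1 and SHMT2 were lower with C12orf66 than with each of the other 3. CYB5B stood at -0.82 with C12orf66, against 0.27 with TSC1 (difference -1.10 ± 0.07 SE, edgeR adjusted p = 4.96e-50), -0.20 with CBL (difference -0.63, edgeR adjusted p = 7.71e-14) and -0.63 with GPS2 (difference -0.21, edgeR adjusted p = 0.0355). SFXN1 stood at -0.73 with C12orf66, against -0.25 with TSC1, -0.20 with CBL and -0.29 with GPS2, and SHMT2 at -0.68, against -0.17, -0.06 and -0.35 in the same order. The 6 differences for these genes ran from -0.61 to -0.33 with edgeR adjusted p of 0.000918 or less. LAMTOR5 stood at -0.25 with C12orf66, against 0.20 with TSC1, -0.07 with CBL and 0.11 with GPS2, with differences of -0.44, -0.18 and -0.35 (edgeR adjusted p = 3.63e-16, 0.00564 and 5.47e-10).

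Other partners set C12orf66 apart from GPS2. PPP2R1A stood at 0.23 with C12orf66, against 0.14 with TSC1 (difference 0.08, edgeR adjusted p = 0.263), -0.13 with CBL (difference 0.36, edgeR adjusted p = 2.42e-08) and -0.44 with GPS2 (difference 0.66, edgeR adjusted p = 1.05e-27). PTPN1 stood at 0.16 with C12orf66, against 0.10 with TSC1 (difference 0.06, edgeR adjusted p = 0.252), -0.99 with CBL (difference 1.14, edgeR adjusted p = 8.51e-153) and -0.50 with GPS2 (difference 0.66, edgeR adjusted p = 1.93e-67). MTOR and RPTOR did not differ past the threshold between C12orf66 and any of the 3, with differences of -0.17 to 0.01.

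The sgRNAs of C12orf66 gave related interactions, with Pearson r = 0.621 and Spearman rho = 0.616 across 542 partners, which share the T0 and reference libraries and the growth of the partner alone. Both sgRNAs called 89 partners lower and 8 higher, and 0 partners were called in opposite directions in edgeR. The first sgRNA alone, with fewer reads, called 115 lower and 11 higher, and the second 236 lower and 34 higher. The slope was 1.07 with the first sgRNA and 1.15 with the second. By position, 129 partners were lower and 41 higher with C12orf66 in the first, and 251 lower and 16 higher in the second.

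**Figure D5:**
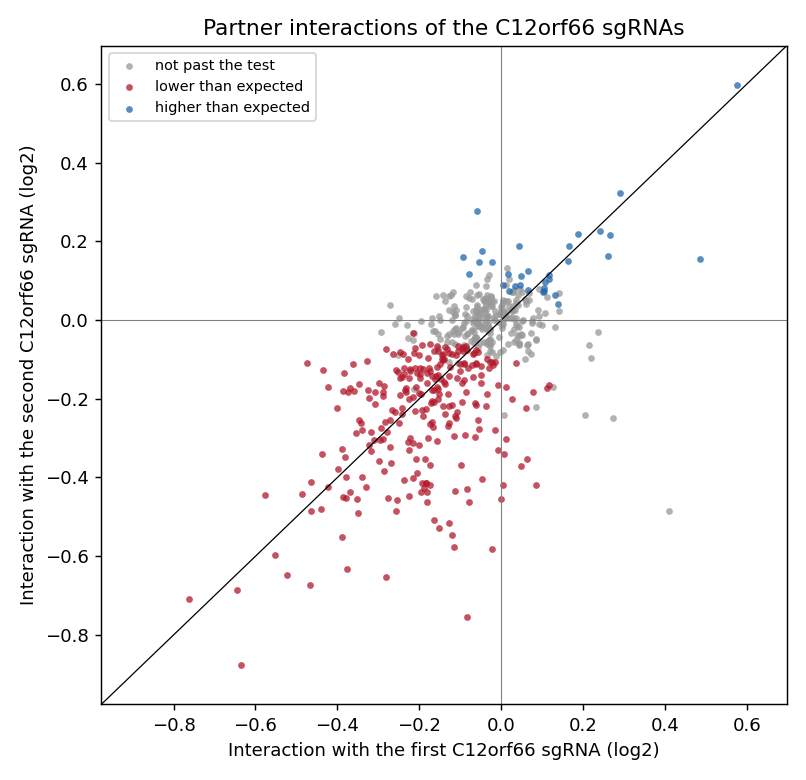
Interaction of 542 partners with the second C12orf66 sgRNA (vertical axis, log2) against that with the first (horizontal axis, log2), coloured by the call over both sgRNAs. MAPKAP1 is at the upper right, at 0.58 and 0.60, and SFXN1 at the lower left, at -0.76 and -0.71.

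The screens gave close results. The 2022 screen alone called 204 partners lower and 29 higher and the 2023 screen 219 lower and 20 higher, with 163 lower and 13 higher in both and 0 in opposite directions. Pearson r across partners was 0.855, and the slope was 1.129 in each screen. In an edgeR test of the difference between screens, 0 of 542 partners passed. Of the 542, 58 had an unadjusted p under 0.05, more than a share of 0.05, so the test does not show that the screens are equal. No other tool was run on this difference.

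The niraparib endpoint over the same T0 libraries gave 180 partners lower and 49 higher in the C12orf66 background, of which 132 and 18 were also called at the reference endpoint. These cells had received 2 µM niraparib, a PARP inhibitor, raised to 3 µM in the 2023 screen, and both endpoints share their T0 libraries. MAPKAP1 had an interaction of 0.60 at both endpoints. CYB5B stood at -0.46 at the niraparib endpoint, against -0.82 at the reference endpoint, SFXN1 at -0.26, against -0.73, and SHMT2 at -0.23, against -0.68. Among the named partners that passed at the reference endpoint but not at the niraparib endpoint were PLK1 (-0.20), SEH1L (0.10), HSD17B12 (0.02) and PTPN1 (0.02). LAMTOR5 (-0.05), LAMTOR3 (-0.003), MTOR (0.09) and RPTOR (-0.01) also did not pass there. The differences between endpoints were not tested.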

How the data were processed

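Construct reads were measured as PCR-amplified sgRNA loci from genomic DNA. The authors deposited raw counts per construct and library, per the file headers, and Bowtie2 2.3.4.1 is named in the submitters' processing notes. Counts were summed over the 8 constructs of a gene pair and over the 55 non-targeting sgRNAs for single genes. A gene pair, or a gene with a single non-targeting sgRNA, needed a mean of 100 T0 reads. That left out 138 of both kinds together but none of C12orf66. Total reads per library were 187186889 to 460723933.

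Each interaction was the endpoint term of a quasi-likelihood fit (edgeR 4.0.16, R 4.3.3) over 8 libraries, with the 4 cultures as a block. Library offsets came from constructs with 2 non-targeting sgRNAs plus the log growth of both single genes, which entered as known, so the SE leaves out its error. The residual degrees of freedom were 3 and the biological coefficient of variation was 4.8%. The Benjamini-Hochberg adjustment took in 176880 tests, those of gene pairs and of genes with a single non-targeting sgRNA. Values per culture used 0.5 added to the counts. The pairing of T0 and reference comes from the labels, which say that each replicate was sampled and then divided; the differences between replicates had r = 0.0504 between T0 and reference in 2022 and 0.0358 in 2023. The p-values rest mostly on a dispersion shared over all pairs (median prior degrees of freedom 50.3) rather than on the spread of a pair over its 4 cultures, so an SE can be smaller than that spread gives.

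Alternatives were curves of degree 2, centring, TMM scaling, no block, other T0 minimums, single screens, sgRNAs and positions, leaving out cultures, DESeq2 1.42.0 and limma 3.58.1. List medians under the curves, centring and TMM were added after seeing the data. The procedure was tested on 20000 simulated pairs, with 1 dispersion for all and the growth of single genes taken as known. It recovered 73% of changes of 0.25 and 99% of changes of 0.5 in log2. There were 10 false calls among 19800 unchanged pairs. Smaller changes and error in the growth of single genes were not simulated. C12orf66, its comparison genes and the gene lists were chosen with earlier results of these data known, and 5 lists (lysosomal proton pump, proteasome, nonsense-mediated decay, glycolysis, respiration) once the library's gene names were known. The genes named were the 12 lowest and 12 highest interactions with the same sign in 4 cultures, the 6 lowest and 6 highest in growth, the mTORC1 lists, TSC1, GPS2 and CBL, and the lowest and highest member of each other list, of which some are not reported here.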

Additional observations from a re-analysis of the deposited data

Results flagged for a closer look

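SHMT2 had 1 culture that stood apart from the other 3. Its interaction with C12orf66 was -0.89 in 2023 replicate 1, against -0.65, -0.61 and -0.62 in 2022 replicate 1, 2022 replicate 2 and 2023 replicate 2, a gap wide for a group of 4 by Dixon's criterion. About 1 in 20 groups would pass that criterion by chance. SHMT2 was lower in edgeR without each of the 4 cultures in turn.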

How the results depend on the processing

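The counts of lower and higher partners moved with the expectation: 22 and 238 against the curves, 156 and 141 centred on the median partner and 419 and 10 with TMM scaling, against 257 and 32. The 2023 screen alone called 20 higher, the first sgRNA 115 lower and 11 higher, the first position 129 lower, the second position 16 higher and limma 114 lower and 9 higher. Without the replicate block the counts were 251 and 30, and the pairing changed 1 named call (TUFM). Leaving out 1 culture gave 221 to 240 lower and 23 to 29 higher, and DESeq2 242 and 26. The slope was 1.07 with the first sgRNA, 1.15 with the second, 1.14 in the second position and 1.11 in limma. CAD rested on 92 to 188 reads and PLK1 on 226 to 667 reads in the reference libraries. The cause of the shifts was not tested.

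Interactions with the opposite sign against the curves were TOP2A 0.0029, HJURP 0.38, GEMIN2 0.30, MCM2 0.17, NOP10 0.14, LAMTOR3 0.17, MTOR 0.22, RPTOR 0.26, UMPS 0.32, EIF3D 0.17, LARS2 0.16, PPP4C 0.11, CUL2 0.15, PARP1 0.083, CLSPN 0.13, NDNL2 0.21, ATP6V0C 0.26, PSMA2 0.028, COQ2 0.072 and TUFM 0.40. List medians with the opposite sign there were 0.081 for Rag and Ragulator, 0.26 for mTORC1, 0.22 for nucleotide supply, 0.14 for ribosome biogenesis, 0.12 for cytosolic translation, 0.21 for mitochondrial translation, 0.0015 for Polycomb, 0.15 for COP9, 0.075 for homologous recombination, 0.025 for Fanconi anemia, 0.024 for base excision, 0.13 for ATR-CHK1, 0.13 for replisome, 0.056 for end joining, 0.096 for centromere, 0.086 for cohesin, 0.16 for proton pump, 0.16 for proteasome, 0.19 for glycolysis, 0.17 for respiration and 0.081 for all partners. Centred on the median partner, list medians with the opposite sign were 0.026 for mTORC1, 0.061 for Polycomb, 0.00071 for homologous recombination, 0.022 for base excision, 0.071 for end joining, 0.0075 for proton pump and 0.0012 for all partners, and with TMM scaling they were -0.056 for PI3K, -0.077 for signalling brakes, -0.041 for PP2A and -0.040 for cell cycle entry, while EP300 -0.019 was the interaction that turned.

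With the first sgRNA alone, interactions of the opposite sign were HSD17B12 -0.059, MTA2 -0.046, CSNK2B -0.022, TUFM 0.11, COPS5 -0.094 and WDR48 -0.055, and list medians -0.032 for signalling brakes. With C12orf66 in the second position they were HSD17B12 -0.089 and COPS5 -0.14, and the list median -0.024 for signalling brakes, and in the first position MTOR 0.024 and RPE 0.053, with list medians 0.024 for mTORC1 and 0.014 for ATR-CHK1. In limma they were HSD17B12 -0.017, with a list median of 0.00053 for Polycomb. Leaving out 1 culture, the Polycomb median ran from -0.027 to 0.0014. In the 2023 screen alone they were CDK2 -0.030, with a list median of -0.030 for cell cycle entry, and at the niraparib endpoint MTOR 0.091, PARP1 0.30 and CDK2 -0.030.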
